A study of Homo sapiens with 10 samples.

Results

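The transcript levels of 36 genes of DNA repair and the damage response were examined in 7 human ovarian cancer cell lines. The genes were fixed by name, and a transcript was counted to a member when any of the gene names paired with it in the deposited annotation was that of the member. This gave 152 transcripts of 99493 in all, under 36 of 57110 gene identifiers. The list held 10 genes of homologous recombination, 4 of end processing and RecQ unwinding, 4 of mismatch repair, 5 of damage signalling, 4 of the Fanconi anaemia pathway, 4 of single-strand break and base excision repair, 2 of end joining and 3 of other routes. All 36 passed the filter on low counts, and each had at least 1 count in each of the 10 libraries.

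RNA was read on nanopore instruments, which pass single molecules through protein pores and so return long reads. For 6 of the lines (COV362, COV504, OVKATE, OVMANA, OVTOKO and SK-OV-3) 1 PromethION library each was made, and for IGROV-1 there were 2 PromethION libraries and 2 from the MinION, a smaller instrument. The labels give no treatment for any line, and total RNA was the starting material throughout. They do not say whether the IGROV-1 libraries came from separate cultures, so p-values measure only the spread between these 4 libraries, which may be technical. Each other line is 1 library with no replicate of its own. In bulk RNA, fewer cells that express a gene and less of its RNA per cell cannot be told apart.

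Cells repair broken DNA by homologous recombination, which copies the sister chromatid, or by end joining, which seals the ends directly. Mismatch repair corrects replication errors, base excision and single-strand break repair mend small lesions, and the Fanconi anaemia pathway unhooks crosslinks between strands. Ovarian carcinoma, above all the high-grade serous type, is known for frequent loss of homologous recombination, on which the clinical use of PARP inhibitors in this disease rests.

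Library totals lay between 1729782 and 3666224 counts, and the members together took 1594 to 2084 CPM (the count scaled to a fixed library total, and not by transcript length). Genes of the mitochondrial genome took 13.0% and 15.2% of counts in the IGROV-1 PromethION libraries and 2.82% to 6.35% in the other 8. All 6 epithelial markers had at least 1 count in each of the 6 other lines, but only 3 or 4 of them did in each IGROV-1 library. Their summed level was 410 and 1220 CPM in IGROV-1 PromethION and 404 and 1270 CPM in IGROV-1 MinION. It was 474 CPM in OVTOKO, 1200 CPM in SK-OV-3 and 1780 to 9650 CPM in the remaining lines, so IGROV-1 overlapped the lowest of the other lines. KRT7, a keratin of simple epithelia, had 0 counts in all 4 IGROV-1 libraries. The 7 mesenchymal or stromal markers summed to 381 CPM in OVKATE to 6330 CPM in SK-OV-3. The 5 ovarian and Müllerian markers summed to 119 CPM in SK-OV-3 to 503 CPM in OVKATE. Of 5 leukocyte and 4 endothelial markers, the summed levels stayed at or below 16.3 and 27.6 CPM.

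The deposited values were counts estimated per transcript, so differences in transcript use between lines could be read for several members, within the limits of that estimate. The stretches that set these transcripts apart are shown for PARP2, RAD51C and BRCA1, read from GRCh38 with GENCODE 29 transcripts, 5′ to 3′ on the strand of the gene. In PARP2, capitals mark the 39 coding bases (13 codons, chromosome 14, 20345088 to 20345126, in exon 2) held by ENST00000250416 and missing from ENST00000429687. In RAD51C, capitals mark the first 30 bases of exon 3 of the full transcript ENST00000337432 (the join runs from exon 2, lower case, to exon 3 on chromosome 17, 58696693 to 58696859). The short transcript ENST00000421782 does not hold this join. In BRCA1, capitals mark the first 30 bases that follow the shared exon, either of the long exon (chromosome 17, 43091435 to 43094860) or of the exon after it.
PARP2 with the longer exon 2: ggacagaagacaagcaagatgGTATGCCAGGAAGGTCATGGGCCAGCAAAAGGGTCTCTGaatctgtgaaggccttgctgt
PARP2 with the shorter exon 2: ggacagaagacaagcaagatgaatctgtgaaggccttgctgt
RAD51C exon 2 joined to exon 3: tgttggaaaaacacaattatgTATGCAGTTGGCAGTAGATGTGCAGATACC
BRCA1 with the long exon: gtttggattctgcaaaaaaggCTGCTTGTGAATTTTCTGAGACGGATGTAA
BRCA1 without the long exon: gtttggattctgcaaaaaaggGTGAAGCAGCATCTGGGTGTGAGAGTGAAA

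The repair genes differed widely among lines, and no line was high or low for all of them. Across the 7 lines on the PromethION (IGROV-1 as the mean of 2 libraries), the log2 range of a member had a median of 1.92 and ran from 0.82 for ATR to 4.51 for MGMT. In CPM, SK-OV-3 held the lowest level of 10 members, and OVKATE the highest of 9. CPM leaves out the TMM scaling factor used in the fit, which was 1.21 in OVKATE and 0.924 to 1.13 in the other libraries. On the fitted changes OVKATE was not the highest line for each of these 9, RAD50 for example (log2 change 1.26, beside 1.45 in COV504). In edgeR's quasi-likelihood test with Benjamini-Hochberg adjustment over all genes, 26 of 36 members (72.2%) differed among the lines at an adjusted p under 0.05, against 81.3% of all 13030 genes tested. DESeq2 called 9 of 36 in the same comparison, against 30.8% of all genes. In both tools the share of members was below that of all genes. The counts by pathway in this joint test are read against the 81.3%.

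**Figure D1:**
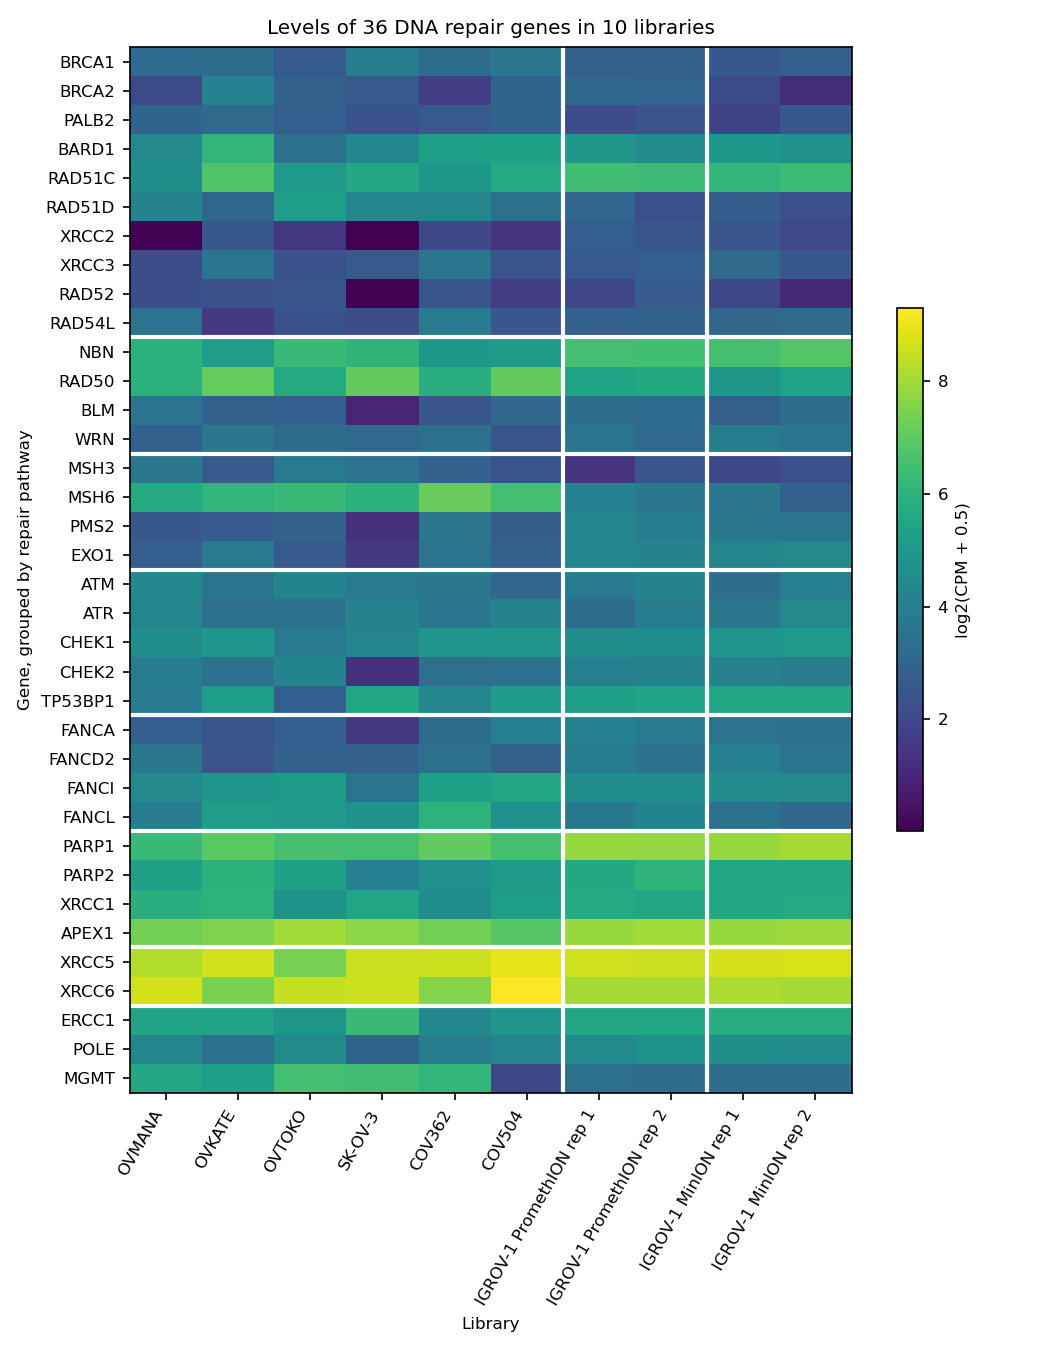
Levels of the 36 DNA repair genes (rows, in blocks by pathway) in 10 libraries (columns) as log2(CPM + 0.5), shown by colour. White lines part the pathways and the IGROV-1 PromethION and MinION libraries. MGMT was low in COV504 and IGROV-1, RAD52, BLM and CHEK2 were low in SK-OV-3, and XRCC2 was low in SK-OV-3 and OVMANA.

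Each line was set against IGROV-1 PromethION in the same fit. In OVMANA, 12 of 36 members were called, beside 35.4% of all genes, and 5 rose (all genes 18.9%) while 7 fell (all genes 16.5%). In OVKATE, 14 of 36 were called (all genes 49.2%), with 5 higher (all genes 26.8%) and 9 lower (all genes 22.4%). In OVTOKO, 13 of 36 were called (all genes 34.1%), with 6 higher (all genes 18.2%) and 7 lower (all genes 15.9%). These shares of members lay near those of all genes or below them. COV362 had 14 of 36 called (all genes 42.5%), with 6 higher (all genes 23.7%) and 8 lower (all genes 18.8%). COV504 had 13 of 36 called (all genes 43.5%), with 4 higher (all genes 24.0%) and 9 lower (all genes 19.6%). SK-OV-3 had the most called members of the 6 lines, 18 of 36 (all genes 41.8%), with 4 higher (all genes 22.0%) and 14 lower, which is 38.9% of the list beside 19.8% of all genes. DESeq2 called 5 members in SK-OV-3 (14.3% of all genes), 3 higher and 2 lower, so the larger number of lower calls was not seen there, and its highest count was 6, in COV504.

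These 6 comparisons share the IGROV-1 libraries. Of the 84 calls, 28 were kept under all alternatives run, 39 were lost in DESeq2 alone, and 17 were lost when at least 1 IGROV-1 library was left out. None changed sign. The 28 calls past the threshold in DESeq2 were the same 28: MSH6 higher in all 6 lines, MGMT higher in OVMANA, OVTOKO, SK-OV-3 and COV362, and RAD50 higher in OVKATE, SK-OV-3 and COV504. PARP1 was lower in the 5 lines other than COV362, and NBN in OVKATE, COV362 and COV504. The remaining 7 were XRCC6 (higher in COV504, lower in OVKATE), XRCC5 and TP53BP1 in OVTOKO, RAD51C in OVMANA, PARP2 in SK-OV-3 and APEX1 in COV504, all but the first lower. A gene-level call of a member named below that is not among these 28 did not pass in DESeq2, which was not run on single transcripts, usage or split genes.

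**Figure D2:**
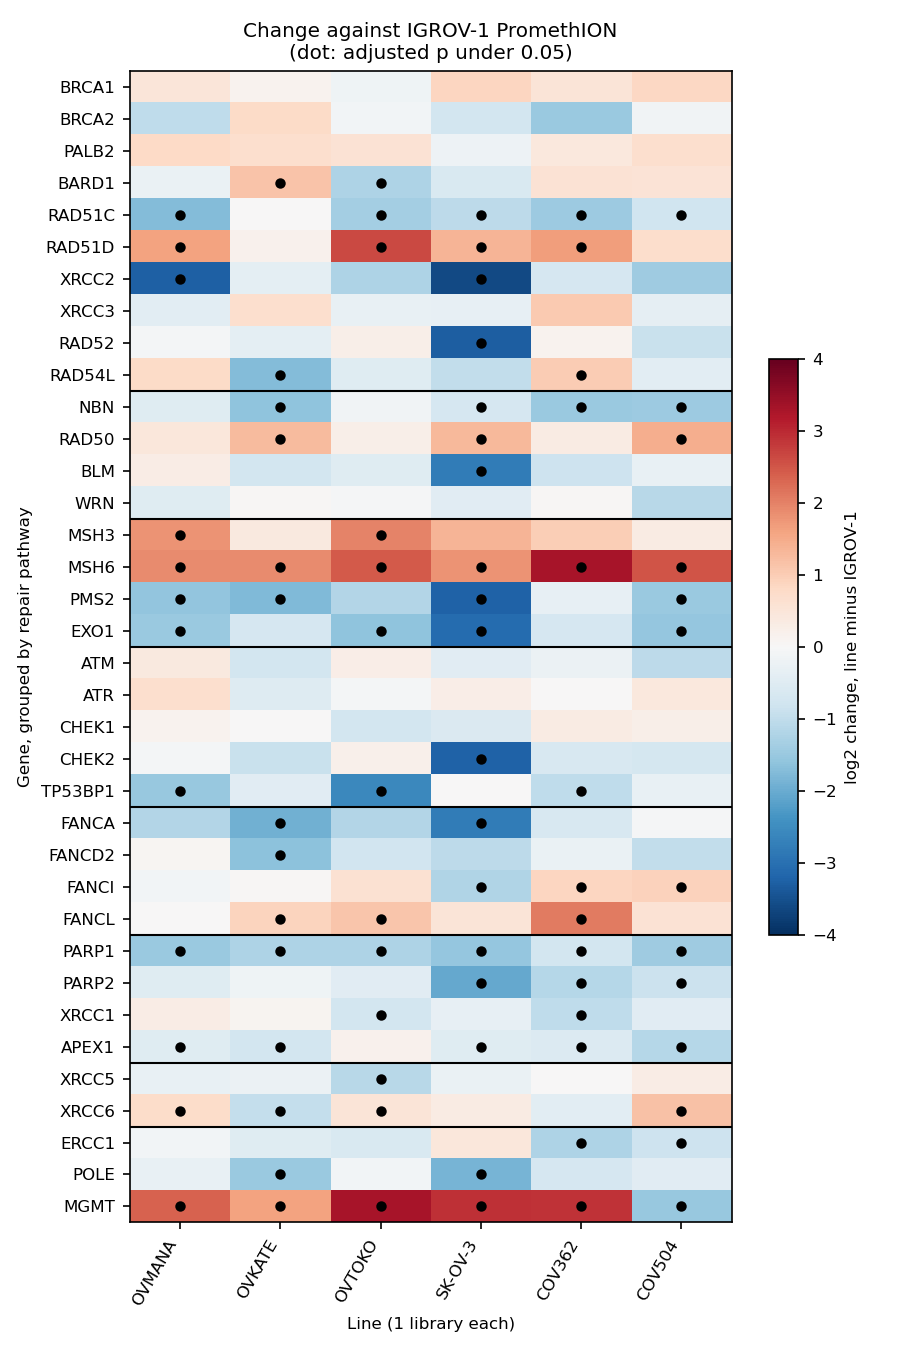
Fitted log2 change of each member (rows, in blocks by pathway) in each of 6 lines (columns, 1 library each) against 2 IGROV-1 PromethION libraries, shown by colour. Dots mark an adjusted p under 0.05 in edgeR; MSH6 and PARP1 carry a dot in all 6 lines, higher and lower respectively.

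Of the 10 homologous recombination genes, 5 differed among the lines in the joint test (all genes 81.3%). Those not called (BRCA1, BRCA2, PALB2, XRCC3 and RAD52) had few counts, with line medians of 4.45 to 9.4 CPM, so a missing call does not show equal levels. Among those called, XRCC2 and RAD54L had medians of 2.31 and 5.34 CPM. BRCA1, which directs end resection and loads partners onto the break, and PALB2, its link to BRCA2, were called in none of the 6 lines, with 5.78 to 14.7 CPM for BRCA1 and 4.5 to 8.9 CPM for PALB2 over the 7 lines on the PromethION. BRCA2, a core mediator of homologous recombination, was also not called in any line. It measured 3.74 CPM in OVMANA, 16.8 in OVKATE, 6.94 in OVTOKO, 5.57 in SK-OV-3, 2.74 in COV362, 7.56 in COV504, 8.12 and 7.73 in IGROV-1 PromethION and 3.82 and 1.85 in IGROV-1 MinION. OVKATE was highest, and the MinION libraries of IGROV-1 lay below its PromethION libraries, a difference of -1.48 ± 0.42 (log2, SE) with an adjusted p of 0.15. That difference was called when the replicate number was added to the fit.

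BARD1, the obligate partner of BRCA1, measured 20.3 CPM in OVMANA, 69.2 in OVKATE, 10.4 in OVTOKO, 19.8 in SK-OV-3, 37.2 in COV362, 39.6 in COV504, 29.5 and 21.9 in IGROV-1 PromethION and 30.8 and 24.7 in IGROV-1 MinION. OVKATE stood above all other libraries and OVTOKO below them. The change was 1.13 ± 0.25 (log2, SE; adjusted p = 0.0066) in OVKATE and -1.22 ± 0.38 (adjusted p = 0.037) in OVTOKO. The OVTOKO call was lost without IGROV-1 PromethION replicate 1, MinION replicate 1 or MinION replicate 2, with an adjusted p of up to 0.089.

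RAD51C and RAD51D, which act in homologous recombination and meet in a common complex, moved in different directions. RAD51C ran from 24.6 CPM in OVMANA to 107 CPM in OVKATE. It was lower in 5 lines, from -0.8 ± 0.19 in COV504 (adjusted p = 0.0091) to -1.73 ± 0.22 in OVMANA (adjusted p = 0.00051), and was at 0.02 ± 0.17 in OVKATE. RAD51D shares its identifier with RFFL and a non-coding gene, and the joined level was 17.6 CPM in OVMANA, 8.41 in OVKATE, 35.8 in OVTOKO, 18.2 in SK-OV-3, 18.8 in COV362, 10.2 in COV504, 7.69 and 4.3 in IGROV-1 PromethION and 6.27 and 4.33 in IGROV-1 MinION. On this joined count all 6 other lines lay above the IGROV-1 libraries. On transcripts of RAD51D alone, OVKATE was at 2.97 CPM, below 5.55 CPM in IGROV-1 PromethION replicate 1, and its change went from 0.18 to -0.5 ± 0.89 (adjusted p = 0.68). On that split, the change was 2.58 ± 0.6 (adjusted p = 0.012) in OVTOKO and 1.94 ± 0.61 (adjusted p = 0.033) in COV362. The joined calls in OVMANA and SK-OV-3 were lost on that split (adjusted p = 0.12 and 0.67), and also without either MinION library (in SK-OV-3 also without PromethION replicate 2), with adjusted p values of up to 0.068 and 0.086.

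XRCC2, which acts in the same complex as RAD51D, sat near the counting floor. It measured 0.534 CPM in OVMANA, 5.44 in OVKATE, 2.31 in OVTOKO, 0.506 in SK-OV-3, 3.53 in COV362, 2.22 in COV504, 6.41 and 5.15 in IGROV-1 PromethION and 5.18 and 3.71 in IGROV-1 MinION. The values in OVMANA and SK-OV-3 are 1 count each, with 95% Poisson intervals of 0.0135 to 2.98 and 0.0128 to 2.82 CPM, which cover counting error only. Both were called lower (adjusted p = 0.031 and 0.015), the OVMANA call being lost without IGROV-1 MinION replicate 1 (adjusted p = 0.051).

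RAD52, which anneals single strands, measured 4.27 CPM in OVMANA, 4.45 in OVKATE, 5.2 in OVTOKO, 0.506 in SK-OV-3, 5.09 in COV362, 2.67 in COV504, 3.42 and 6.01 in IGROV-1 PromethION and 3.55 and 1.54 in IGROV-1 MinION. The SK-OV-3 value is 1 count, and its call (adjusted p = 0.047) was lost without PromethION replicate 2 or either MinION library, with an adjusted p of up to 0.069. The joint test over lines did not call RAD52 (adjusted p = 0.21). XRCC3, which pairs with RAD51C (4.27 to 12.1 CPM over the lines), was called in none. RAD54L, a motor protein of homologous recombination (2.47 to 13.3 CPM), fell in OVKATE (-1.75 ± 0.54, adjusted p = 0.026). RAD54L was also called higher in COV362 (adjusted p = 0.048), a call lost without any 1 of the 4 IGROV-1 libraries (adjusted p of up to 0.12).

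The fall of RAD51C was uneven between its transcripts. The short transcript ENST00000421782 has 2 exons and 567 bases, of which 147 at its end are not in the full transcript of 9 exons and 2591 bases (chromosome 17, 58692573 to 58735611). It took 68% and 69.1% of RAD51C counts in the IGROV-1 PromethION libraries and 71.6% and 64.7% in the MinION libraries. In the other lines it took 39.1% in OVMANA, 29.3% in OVKATE, 38.9% in OVTOKO, 21.1% in SK-OV-3, 33.3% in COV362 and 37.9% in COV504. The share was thus higher in each IGROV-1 library than in any other line.

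The level of the short RAD51C transcript was 59.3 and 57.6 CPM in IGROV-1 PromethION and 9.62 to 31.3 CPM in the other lines, and it was called lower in all 6. The full transcript, which holds the join of exons 2 and 3 printed above, was 27.9 and 25.8 CPM in IGROV-1 PromethION. It was called higher in OVKATE (75.5 CPM; 1.19 ± 0.25, adjusted p = 0.01) and was called in no other line, from -0.79 ± 0.33 in OVMANA to 0.28 ± 0.27 in SK-OV-3. The test of transcript usage within a gene called RAD51C in OVKATE (adjusted p = 0.024, all genes tested 4.97%) and SK-OV-3 (adjusted p = 0.03, all genes tested 2.07%). Both usage calls were lost without any 1 of the 4 IGROV-1 libraries, with adjusted p values of up to 0.16 and 0.2, and the calls on single member transcripts fell to 0 in each line without MinION replicate 2, and without MinION replicate 1 in each line but OVKATE, where 4 were left.

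BRCA1 counts were few, 10 to 29 in a library, and most were assigned to a transcript without the long exon. The transcript ENST00000352993, without these 3426 coding bases, took 149 of 201 BRCA1 counts summed over the libraries (74.1%). That sum mixes lines, and the share in single libraries varied: it was 63.5% in OVMANA, 66% in OVKATE, 98.1% in OVTOKO, 83.9% in SK-OV-3, 98.7% in COV362, 53.2% in COV504, 65.6% and 73% in IGROV-1 PromethION and 56.9% and 88.3% in IGROV-1 MinION. The full-length transcript ENST00000357654 was at 1.88% in OVTOKO and 1.29% in COV362 and at most 43.3%, in COV504. It is 7207 bases long and the other 3668, and the part of transcript length in these shares was not tested. BRCA1 was described this way after its values were seen, and no usage difference was called for it.

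Member transcripts were also tested singly, 70 of them against IGROV-1 PromethION. OVMANA had 12 called (4 higher and 8 lower), beside 23.7% of all transcripts (13.1% higher, 10.5% lower), and OVKATE had 19 (8 and 11), beside 35.7% (19.3%, 16.4%). OVTOKO had 12 (6 and 6), beside 22.1% (11.9%, 10.2%), and SK-OV-3 had 18 (6 and 12), beside 27.9% (14.3%, 13.6%). COV362 had 20 (9 and 11), beside 29.0% (15.9%, 13.1%), and COV504 had 17 (9 and 8), beside 29.6% (16.4%, 13.1%). Of 20 members tested for usage, none was called in OVMANA (all genes 2.75%, 3 members at an unadjusted p under 0.05) or OVTOKO (all genes 1.35%, 2 members).

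**Figure D3:**
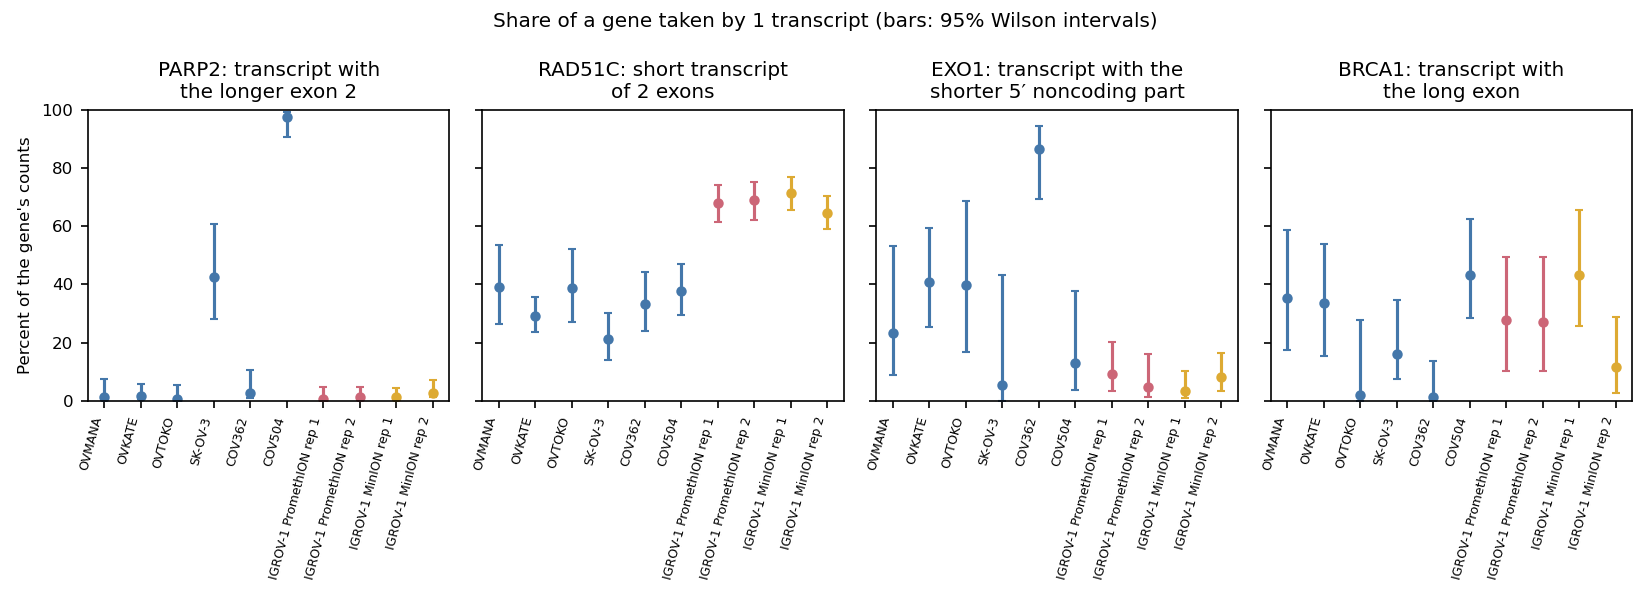
Share of a gene's counts taken by 1 transcript (y axis, percent) in each library (x axis), with 95% Wilson intervals, for PARP2, RAD51C, EXO1 and BRCA1. Blue points are the 6 lines with 1 library, red points IGROV-1 PromethION and yellow points IGROV-1 MinION; the PARP2 transcript with the longer exon 2 reached 97.8% in COV504 and 42.6% in SK-OV-3.

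End processing genes of the MRN complex, which senses and trims broken ends, did not move together. NBN, its regulatory subunit, measured 61.4 CPM in OVMANA, 36.1 in OVKATE, 78 in OVTOKO, 66.3 in SK-OV-3, 31 in COV362, 35.1 in COV504, 92.3 and 88.1 in IGROV-1 PromethION and 94.6 and 112 in IGROV-1 MinION. Every other line lay below all 4 IGROV-1 libraries, and NBN fell by 1.62 ± 0.2 (log2, SE) in OVKATE, 1.5 ± 0.2 in COV362 and 1.44 ± 0.2 in COV504 (adjusted p = 0.0003, 0.00058 and 0.00065). It also fell in SK-OV-3 (-0.67 ± 0.18, adjusted p = 0.018).

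RAD50, the ATPase of the same complex, measured 60.9 CPM in OVMANA, 137 in OVKATE, 51.5 in OVTOKO, 133 in SK-OV-3, 56 in COV362, 133 in COV504, 42.3 and 50.3 in IGROV-1 PromethION and 29.7 and 41.1 in IGROV-1 MinION. OVKATE, SK-OV-3 and COV504 formed a high set apart from the rest. The change was 1.26 ± 0.2 in OVKATE, 1.3 ± 0.2 in SK-OV-3 and 1.45 ± 0.2 in COV504 (adjusted p = 0.0013, 0.0014 and 0.00074). RAD50 is joined with C5orf56 and a non-coding gene under 1 identifier, and its own transcripts held 74.9% to 97% of those counts. On its own transcripts the changes were 0.95 ± 0.2, 1.27 ± 0.2 and 1.38 ± 0.2, still called, and SK-OV-3 (121 CPM) and COV504 (118 CPM) were above OVKATE (103 CPM). RAD50 was called higher and NBN lower in OVKATE, SK-OV-3 and COV504.

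BLM, a RecQ helicase that dissolves joined strands, measured 11.2 CPM in OVMANA, 6.92 in OVKATE, 6.36 in OVTOKO, 1.52 in SK-OV-3, 5.09 in COV362, 8.01 in COV504, 9.82 and 9.02 in IGROV-1 PromethION and 6.55 and 9.89 in IGROV-1 MinION. SK-OV-3 was lowest with 3 counts (95% Poisson interval 0.313 to 4.44 CPM) and was the only line called (adjusted p = 0.0077). WRN, the other RecQ member, ran from 4.89 CPM in COV504 to 12.9 CPM in OVKATE and was called in no line.

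All 4 mismatch repair genes differed among the lines in the joint test (all genes 81.3%), and MSH6 was higher than IGROV-1 in each of the 6 other lines. MSH6, which finds base mismatches (chromosome 2, 47783082 to 47810101), measured 52.4 CPM in OVMANA, 68.3 in OVKATE, 76.9 in OVTOKO, 60.8 in SK-OV-3, 141 in COV362, 90.3 in COV504, 17.1 and 12.5 in IGROV-1 PromethION and 12.5 and 7.11 in IGROV-1 MinION. All 6 lines lay above all 4 IGROV-1 libraries with no overlap. The change ran from 1.81 ± 0.31 in SK-OV-3 (adjusted p = 0.0023) to 3.3 ± 0.28 in COV362 (adjusted p = 6.4e-05). The main transcript ENST00000234420 took 71% to 94.4% of MSH6 counts in the other lines and 39.3%, 66.4%, 79.1% and 28.8% in the IGROV-1 libraries, where 23 to 46 counts lay behind each share.

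PMS2, which nicks the new strand, measured 5.34 CPM in OVMANA, 5.94 in OVKATE, 6.94 in OVTOKO, 2.03 in SK-OV-3, 12.9 in COV362, 6.23 in COV504, 18.8 and 14.6 in IGROV-1 PromethION and 12.5 and 12 in IGROV-1 MinION. COV362 lay within the IGROV-1 range and the other 5 lines lay below it. The change was -3.24 ± 0.51 in SK-OV-3 (adjusted p = 0.0014), and PMS2 was also called lower in OVMANA, OVKATE and COV504. The OVMANA call (adjusted p = 0.02) was lost without either MinION library, with an adjusted p of up to 0.064. PMS2 has near-identical partial copies in the genome, as do CHEK2 and FANCD2, so counts of these genes are uncertain.

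EXO1, the exonuclease that removes the strand with the error, measured 6.41 CPM in OVMANA, 14.3 in OVKATE, 5.78 in OVTOKO, 2.53 in SK-OV-3, 11.4 in COV362, 6.67 in COV504, 19.6 and 17.6 in IGROV-1 PromethION and 18.3 and 20.4 in IGROV-1 MinION. All 6 lines lay below the IGROV-1 libraries. EXO1 fell by 3.08 ± 0.44 in SK-OV-3 (adjusted p = 0.00083) and was called lower in OVMANA, OVTOKO and COV504 as well. MSH3, which finds larger loops (3.65 CPM in IGROV-1 to 13.9 CPM in OVTOKO), was called higher in OVMANA (adjusted p = 0.026) and OVTOKO (adjusted p = 0.018). Both MSH3 calls were lost without either MinION library, the first also without PromethION replicate 1, with adjusted p values of up to 0.094 and 0.079.

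EXO1 also differed in transcript use in COV362. There the transcript ENST00000348581 took 86.5% of 29 counts (95% Wilson interval 69.4% to 94.5%), beside 9.21%, 4.54%, 3.23% and 8.12% in the IGROV-1 libraries. It differs from the main transcript ENST00000366548 in noncoding sequence only. The usage call (adjusted p = 0.031, all genes tested 2.98%) was lost without any 1 of the 4 IGROV-1 libraries, with an adjusted p of 0.11 to 0.17, and this transcript was singled out after its values were seen.

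Of the 5 damage signalling genes, CHEK2 and TP53BP1 differed among the lines (all genes 81.3%) and the 3 kinases ATM, ATR and CHEK1 were called in none. ATM, the kinase that answers double-strand breaks, measured 19.8 CPM in OVMANA, 11.9 in OVKATE, 17.9 in OVTOKO, 13.7 in SK-OV-3, 12.9 in COV362, 8.01 in COV504, 14.1 and 17.6 in IGROV-1 PromethION and 9.82 and 15.8 in IGROV-1 MinION. COV504 was lowest and OVMANA highest. ATR, the kinase for stalled forks, ran from 10.4 to 18.7 CPM over the lines and its target kinase CHEK1 from 13.3 to 29.2 CPM.

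CHEK2, the target kinase of ATM, measured 15 CPM in OVMANA, 10.9 in OVKATE, 17.9 in OVTOKO, 2.03 in SK-OV-3, 10.2 in COV362, 10.7 in COV504, 15.8 and 17.2 in IGROV-1 PromethION and 16.9 and 14.8 in IGROV-1 MinION. SK-OV-3, with 4 counts, lay apart from all other libraries, at -3.22 ± 0.49 (adjusted p = 0.0012). TP53BP1, which shields ends from resection, measured 13.4 CPM in OVMANA, 36.1 in OVKATE, 6.36 in OVTOKO, 47.1 in SK-OV-3, 19.2 in COV362, 34.3 in COV504, 37.2 and 43 in IGROV-1 PromethION and 46.9 and 46.3 in IGROV-1 MinION. It was low in OVMANA, OVTOKO and COV362, with a change of -2.57 ± 0.33 in OVTOKO (adjusted p = 0.00063), and was at 0.0 ± 0.21 in SK-OV-3.

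Of the 4 Fanconi anaemia genes, 3 differed among the lines in the joint test (all genes 81.3%). FANCA, of the core complex that marks crosslinked sites, measured 6.41 CPM in OVMANA, 4.95 in OVKATE, 6.36 in OVTOKO, 2.53 in SK-OV-3, 9.4 in COV362, 15.6 in COV504, 16.7 and 13.7 in IGROV-1 PromethION and 11.2 and 10.2 in IGROV-1 MinION. COV504 lay within the IGROV-1 range and the other lines below it, with calls in OVKATE (-1.91 ± 0.41, adjusted p = 0.0054) and SK-OV-3 (-2.79 ± 0.48, adjusted p = 0.0023). FANCL, the ubiquitin ligase of the complex, measured 15 CPM in OVMANA, 35.6 in OVKATE, 31.8 in OVTOKO, 26.3 in SK-OV-3, 63.9 in COV362, 24.9 in COV504, 13.2 and 18 in IGROV-1 PromethION and 10.6 and 8.34 in IGROV-1 MinION. It rose in COV362 by 2.07 ± 0.25 (adjusted p = 0.00041). Calls in OVKATE and OVTOKO (adjusted p = 0.031 and 0.022) were lost without PromethION replicate 1 or either MinION library, with adjusted p values of up to 0.11 and 0.071.

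FANCI, which FANCL modifies together with FANCD2, measured 20.3 CPM in OVMANA, 28.7 in OVKATE, 33 in OVTOKO, 11.6 in SK-OV-3, 40 in COV362, 45.8 in COV504, 23.1 and 22.3 in IGROV-1 PromethION and 21.8 and 20.1 in IGROV-1 MinION. It rose in COV362 (0.86 ± 0.22, adjusted p = 0.014) and COV504 (0.93 ± 0.22, adjusted p = 0.009) and fell in SK-OV-3 (-1.19 ± 0.29, adjusted p = 0.011). FANCD2 (4.95 CPM in OVKATE to 12.8 CPM in OVMANA) was called in OVKATE only (-1.64 ± 0.5, adjusted p = 0.025).

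All 4 genes of single-strand break and base excision repair differed among the lines (all genes 81.3%), and they were lower than in IGROV-1 wherever they were called. PARP1, the sensor of strand breaks and the target of PARP inhibitors, measured 78.5 CPM in OVMANA, 120 in OVKATE, 93.1 in OVTOKO, 90.7 in SK-OV-3, 133 in COV362, 90.3 in COV504, 235 and 222 in IGROV-1 PromethION and 230 and 263 in IGROV-1 MinION. The IGROV-1 libraries lay above all other lines with no overlap. PARP1 fell by 0.73 ± 0.16 in COV362 (adjusted p = 0.0066) to 1.56 ± 0.17 in SK-OV-3 (adjusted p = 0.00022).

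PARP2, a second break sensor (chromosome 14, 20343582 to 20357905), measured 39.5 CPM in OVMANA, 62.3 in OVKATE, 39.9 in OVTOKO, 16.2 in SK-OV-3, 25.1 in COV362, 33.4 in COV504, 50 and 64.9 in IGROV-1 PromethION and 45.6 and 43.9 in IGROV-1 MinION. It fell in SK-OV-3 by 2.05 ± 0.28 (adjusted p = 0.00065) and in COV362 by 1.15 ± 0.25 (adjusted p = 0.0062). The COV504 call (adjusted p = 0.019) was lost without PromethION replicate 2 or either MinION library, with an adjusted p of up to 0.075.

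The exon 2 form of PARP2 separated COV504 from the rest. The transcript with the longer exon 2, printed above, took 97.8% of 75 PARP2 counts in COV504 (95% Wilson interval 90.8% to 99.3%) and 42.6% of 32 counts in SK-OV-3 (28.2% to 60.7%). It took 1.29% in OVMANA, 1.6% in OVKATE, 0.648% in OVTOKO, 2.47% in COV362, 0.692% and 1.1% in IGROV-1 PromethION and 1.09% and 2.5% in IGROV-1 MinION. In those 8 libraries the form with the shorter exon 2 took 92.4% to 98.7%. Usage was called in COV504 (adjusted p = 0.00022, all genes tested 2.56%) and SK-OV-3 (adjusted p = 0.01). The COV504 call was kept without each IGROV-1 library in turn (adjusted p = 0.0055 to 0.018), while the SK-OV-3 call was lost without any 1 of the 4 (adjusted p = 0.08 to 0.15).

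XRCC1, the scaffold of this repair, is joined with a non-coding gene whose share of the counts was 0, and it measured 56.1 CPM in OVMANA, 63.3 in OVKATE, 26.6 in OVTOKO, 44.1 in SK-OV-3, 22.7 in COV362, 36 in COV504, 50.8 and 43.4 in IGROV-1 PromethION and 45.8 and 50.7 in IGROV-1 MinION. It fell in COV362 (-1.01 ± 0.22, adjusted p = 0.0072). Its call in OVTOKO (adjusted p = 0.038) was lost without PromethION replicate 1 or either MinION library, with an adjusted p of up to 0.13. APEX1, the endonuclease for abasic sites (117 CPM in COV504 to 260 CPM in OVTOKO), lies 97285 bases from PARP2 on chromosome 14 and fell in COV504 (-1.13 ± 0.17, adjusted p = 0.00092) and OVKATE (-0.75 ± 0.16, adjusted p = 0.0052). Smaller APEX1 calls in OVMANA, SK-OV-3 and COV362 (adjusted p = 0.041, 0.036 and 0.021) were lost without IGROV-1 PromethION replicate 2 or either MinION library, the first 2 also without PromethION replicate 1, with adjusted p values of up to 0.18, 0.17 and 0.1.

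The Ku subunits of end joining, which bind DNA ends as a pair, were called in opposite directions in OVTOKO. XRCC6, or Ku70, measured 418 CPM in OVMANA, 170 in OVKATE, 357 in OVTOKO, 389 in SK-OV-3, 190 in COV362, 628 in COV504, 263 and 265 in IGROV-1 PromethION and 287 and 262 in IGROV-1 MinION. COV504 was highest (1.17 ± 0.16, adjusted p = 0.00056) and OVKATE lowest (-0.94 ± 0.17, adjusted p = 0.0024). XRCC5, or Ku80, measured 301 CPM in OVMANA, 402 in OVKATE, 169 in OVTOKO, 371 in SK-OV-3, 382 in COV362, 502 in COV504, 396 and 375 in IGROV-1 PromethION and 411 and 426 in IGROV-1 MinION. XRCC5 was called lower in OVTOKO alone (-1.11 ± 0.16, adjusted p = 0.0012). In that line XRCC6 was called higher (0.51 ± 0.16, adjusted p = 0.039), a call lost without either PromethION library or MinION replicate 1, with an adjusted p of up to 0.12. XRCC6 was also higher in OVMANA (0.72 ± 0.16, adjusted p = 0.0085), where XRCC5, at 301 CPM, lay below the IGROV-1 libraries without a call.

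MGMT, which removes alkyl groups from guanine and so counters alkylating drugs, had the widest range of all members. The gene (chromosome 10, 129467184 to 129768007) has 1 transcript in the annotation. It measured 48.6 CPM in OVMANA, 37.1 in OVKATE, 91.9 in OVTOKO, 87.6 in SK-OV-3, 70.9 in COV362, 3.56 in COV504, 10.3 and 9.45 in IGROV-1 PromethION and 9.55 and 9.58 in IGROV-1 MinION. OVTOKO was thus 25.8-fold above COV504, where 8 counts were seen (95% Poisson interval 1.54 to 7.01 CPM). Against IGROV-1, MGMT rose by 1.61 ± 0.24 in OVKATE (adjusted p = 0.00089) to 3.29 ± 0.21 in OVTOKO (adjusted p = 1.7e-05) and fell by 1.53 ± 0.4 in COV504 (adjusted p = 0.014).

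ERCC1, part of the nuclease that cuts beside bulky lesions, measured 42.7 CPM in OVMANA, 42.5 in OVKATE, 29.5 in OVTOKO, 76.5 in SK-OV-3, 19.6 in COV362, 28.5 in COV504, 47.8 and 47.7 in IGROV-1 PromethION and 55.1 and 55.3 in IGROV-1 MinION. SK-OV-3 was highest without a call (0.45 ± 0.18, adjusted p = 0.078), and ERCC1 fell in COV362 (-1.24 ± 0.22, adjusted p = 0.0024) and COV504 (-0.82 ± 0.21, adjusted p = 0.013). POLE, the polymerase of the leading strand, measured 18.2 CPM in OVMANA, 10.4 in OVKATE, 20.8 in OVTOKO, 7.6 in SK-OV-3, 14.5 in COV362, 18.2 in COV504, 20.9 and 26.2 in IGROV-1 PromethION and 23.7 and 21.9 in IGROV-1 MinION. It was low in OVKATE (-1.48 ± 0.32, adjusted p = 0.0059) and SK-OV-3 (-1.85 ± 0.35, adjusted p = 0.0035).

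**Figure D4:**
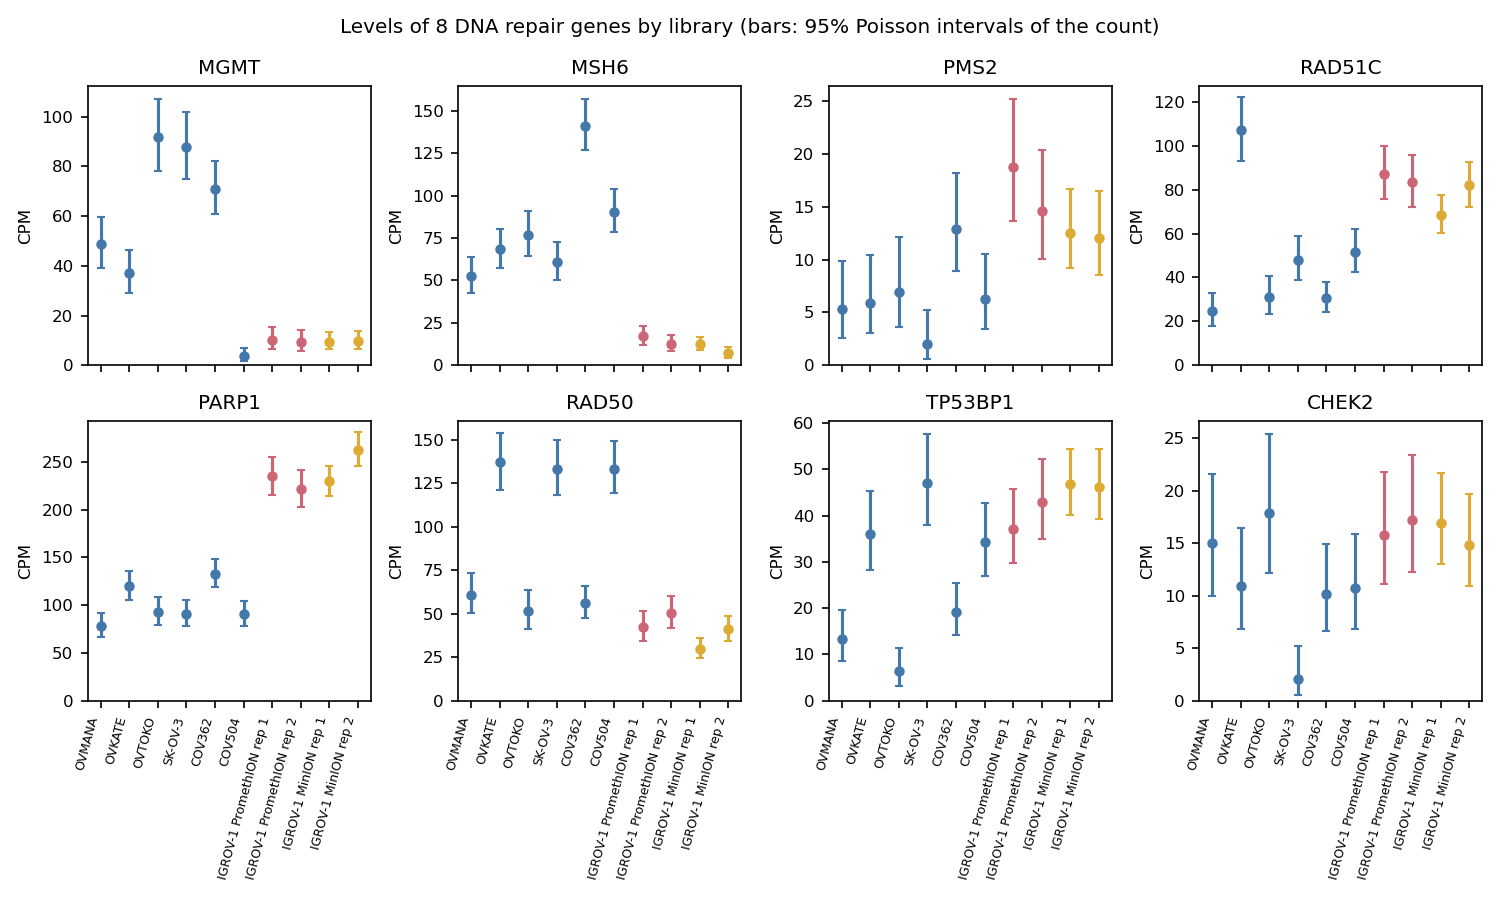
Levels of 8 DNA repair genes (y axis, CPM from 0) in each library (x axis), with 95% Poisson intervals of the count. Blue points are the 6 lines with 1 library, red points IGROV-1 PromethION and yellow points IGROV-1 MinION; MSH6 lay above all IGROV-1 libraries in the other 6 lines and PARP1 below them.

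The 14 members called lower in SK-OV-3 by edgeR were RAD51C, XRCC2, RAD52, NBN, BLM, PMS2, EXO1, CHEK2, FANCA, FANCI, PARP1, PARP2, APEX1 and POLE. Of these, only PARP1 and PARP2 were also called in DESeq2, and the calls of RAD52 and APEX1 were lost when single IGROV-1 libraries were left out. RAD50, MSH6 and MGMT were higher in SK-OV-3. RAD51D was called higher there only on the count joined with RFFL, and on its own transcripts the change was 0.47 ± 0.77 (log2, SE). In the same library the 25 genes of a list for S phase and proliferation had the lowest summed level, 1140 CPM, beside 1490 to 2450 CPM in the other libraries, and 17 of the 25 were lower than in IGROV-1 (all genes 19.8%) with none higher (all genes 22.0%). Of the same 25 genes, OVKATE had 13 lower and 3 higher (all genes 22.4% and 26.8%), and OVMANA 10 and 4 (all genes 16.5% and 18.9%). OVTOKO had 9 and 0 (all genes 15.9% and 18.2%), COV504 8 and 2 (all genes 19.6% and 24.0%) and COV362 3 and 7 (all genes 18.8% and 23.7%). The part of these 25 genes in the lower repair genes of SK-OV-3 was not tested.

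Between instruments, 0 of 35 members tested were called in IGROV-1 (0.817% of all 10041 genes, 0.11% higher and 0.707% lower), with 4 at an unadjusted p under 0.05 and 0 in DESeq2 as well. This fit left out the replicate number, and with that number added 4 members were called, all lower on the MinION. RAD52 did not pass the filter in that comparison. How close the instruments lay varied by member. MGMT was at 9.85 ± 0.57 CPM on the PromethION and 9.56 ± 0.022 CPM on the MinION (SD, n = 2 each), and BRCA2 at 7.92 ± 0.27 and 2.84 ± 1.4 CPM. Of 52 member transcripts, 1 was higher and 1 lower on the MinION, beside 2.29% of all transcripts (0.87% higher, 1.42% lower). XRCC6 was the 1 of 11 members with a called usage difference (adjusted p = 0.0049, all genes tested 5.98%). Its transcript ENST00000359308, with another noncoding first exon, took 5.64% and 4.82% on the PromethION and 11.9% and 13.6% on the MinION. This call was lost without any 1 of the 4 libraries, with an adjusted p of 0.068 to 0.23. XRCC6 usage was also called in COV362 (adjusted p = 0.022), where ENST00000402580 took 8.38% beside 2.34% and 1.86% in IGROV-1 PromethION and ENST00000428575 took 7.05% beside 1.97% and 3.13%. Both were named after their values were seen, and the call was lost without any 1 of the 4 libraries (adjusted p of up to 0.21).

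Other genes of the same pathways numbered 133. Of the 129 tested, 106 (82.2%) differed among the lines, beside 81.3% of all genes. In SK-OV-3, 54 (41.9%) were called, 14 higher and 40 lower, beside 41.8% of all genes (22.0% higher, 19.8% lower). The directions differed by line. COV362 had 29 higher and 18 lower (all genes 23.7% and 18.8%). OVTOKO had 14 higher and 24 lower (all genes 18.2% and 15.9%), and OVMANA 16 higher and 23 lower (all genes 18.9% and 16.5%). OVKATE had 28 higher and 27 lower (all genes 26.8% and 22.4%), and COV504 23 higher and 22 lower (all genes 24.0% and 19.6%). In COV362, where the members had 6 higher and 8 lower, most called genes of these lists were higher, as were most called genes of all tested. By pathway, the joint test called 18 of 23 tested genes of homologous recombination, 10 of 11 of mismatch repair, 16 of 18 of damage signalling and 10 of 13 of the Fanconi anaemia pathway. It called 18 of 20 of base excision repair, 6 of 9 of end joining, 15 of 19 of nucleotide excision repair and 13 of 16 of polymerases and direct reversal.

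Genes with a wide range in each list were named by rule. RBBP8, which starts resection, ran from 9.62 CPM in OVMANA to 338 CPM in SK-OV-3, and MRE11, the nuclease of the MRN complex, from 6 CPM in IGROV-1 to 55.9 CPM in OVKATE. MRE11 was called higher in OVMANA, OVKATE, OVTOKO, COV362 and COV504, by 1.28 to 2.91 (log2; adjusted p of up to 0.032). RFC4, a clamp loader subunit, ran from 26 CPM in OVTOKO to 127 CPM in OVKATE.

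FANCF, of the Fanconi core complex, had 0 counts in all 4 IGROV-1 libraries and 4.27 to 25.4 CPM in the other lines. CENPX, a histone-fold partner of FANCM, ran from 18.7 CPM in SK-OV-3 to 268 CPM in OVKATE. TIPIN, which guards forks, ran from 1.6 CPM in OVMANA to 22.5 CPM in IGROV-1, and HUS1, of the checkpoint clamp, from 4.62 CPM in OVTOKO to 47.6 CPM in OVMANA. RPA3, a subunit of the single-strand binding complex with the same range as HUS1, ran from 32.9 CPM in SK-OV-3 to 314 CPM in COV362.

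For base excision, APLF (joined with a neighbour) had 0 counts in OVMANA and at most 5.78 CPM, and APTX ran from 5.94 CPM in OVKATE to 28.5 CPM in COV504. Among end joining genes, POLM reached 83.9 CPM in OVMANA beside 5.57 CPM in SK-OV-3, and XRCC4 was lowest in COV362 at 3.92 CPM. DDB2, a sensor of ultraviolet lesions, was lowest in SK-OV-3 (4.05 CPM) and XPA, a lesion verifier, in OVMANA (5.34 CPM). ALKBH3, an alkylation reversal enzyme, had 0 counts in OVTOKO and 2 or 3 in each IGROV-1 library, while POLE3 and POLH, with equal ranges, were highest in OVKATE (227 CPM) and OVMANA (18.7 CPM).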

How the data were processed

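Long-read RNA was measured in 10 libraries of 7 lines. The authors deposited estimated counts per transcript and TPM values, and the submitters' processing notes name minimap2 2.24-r1122 and GRCh38. No source used here names the quantifier, its settings, strand use or the annotation release, so overlapping and antisense genes are uncertain. The deposited TPM equalled the count scaled to a fixed library total to within 5.6e-11 and is written CPM. Of 99493 transcripts, 99362 were matched to GENCODE 29.

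Counts were summed per gene identifier, rounded to whole numbers (at most 0.026% of a library's counts) and tested with edgeR 4.0.16 (R 4.3.3). The quasi-likelihood fit used TMM, the default expression filter by group, 8 groups of line and instrument and 2-sided tests with Benjamini-Hochberg adjustment over all features, with calls at an adjusted p under 0.05. Instruments were compared in the 4 IGROV-1 libraries alone. With all 10 libraries, only IGROV-1 informs the spread (2 residual degrees of freedom); a line with a single library is taken to vary as IGROV-1 does. The biological coefficient of variation was 11.5% for genes. Standard errors were derived from each log2 change and its F value. Transcript usage was tested with edgeR's exon-level procedure and a Simes p per gene, which could be done for 20 members between lines. IGROV-1 replicates differed by more than counting noise (chi-square per degree of freedom 4.04 and 6.27), so none was merged.

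On simulated data for 1 changed line, the test found 30% of 200 altered genes when the log2 change was 1 (11784 genes) and 72.5% when it was 2 (11814 genes). Usage changes were recovered for 0% (3862 genes) and 18.5% (3884 genes). Apart from the altered genes, the simulated libraries shared 1 profile, whereas 34.1% to 49.2% of genes were called in a line of the data. The adjusted p depends on the share of changed genes, so these rates need not hold for the tests reported.

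Values by library are given for up to 5 members of homologous recombination and up to 3 of each other list with the widest range, and for members at or under 3 counts somewhere. Transcripts are named at 10% or more of a gene with a usage call, and otherwise the dominant one. Of the other pathway genes, the 2 with the widest range per list among those called over the lines are named, with ties. A gene that this rule selects is not reported here. The RAD51C levels, the BRCA1 and EXO1 transcripts and the 3 joined members' split were chosen after their values were seen. Members and lists were chosen with earlier results of these data known.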

Additional observations from a re-analysis of the deposited data

How the results depend on the processing

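DESeq2 1.42.0 called fewer members than edgeR: 4 in OVMANA, 5 each in OVKATE, OVTOKO and SK-OV-3, 3 in COV362, 6 in COV504 and 9 over the lines. Its shares of all genes were, in the same order, 12.3%, 17.4%, 11.3%, 14.3%, 13.0%, 14.7% and 30.8%, each also below that of edgeR. Without 1 IGROV-1 library, OVMANA had 7 to 12 called members and OVTOKO 8 to 13, both lowest without MinION replicate 1. RLE factors, no filter, a filter at 10 CPM, PromethION libraries only, leaving out mitochondrial genes and splitting joined genes (added after seeing the data) left each count of called members within 1.5 times. No called change turned sign, but 32 of the 251 log2 changes of members, none of them called, did so under at least 1 alternative, RAD51D in OVKATE among them. Calls on single member transcripts were fewer without a filter, at 3 of 12 in OVMANA, 9 of 19 in OVKATE, 5 of 12 in OVTOKO, 9 of 18 in SK-OV-3, 8 of 20 in COV362 and 0 of 2 between instruments. Without 1 library they ran from 0 to 16 in OVMANA and OVTOKO, 0 to 21 in OVKATE, COV362 and COV504, 0 to 20 in SK-OV-3 and 0 to 3 between instruments, with 0 in the lines coming when a MinION library was left out. The count between instruments was 1 with a filter at 10 CPM and 0 with all 10 libraries in the fit. Usage calls went to 0 without any 1 library in OVKATE, SK-OV-3, COV362 and between instruments, and with a filter at 10 CPM they were 2 in OVKATE and 1 in COV362. The cause was not tested.

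Replicate numbers were shared between instruments. Deviations of same-numbered IGROV-1 libraries correlated at 0.211 over 13369 genes, and summed epithelial markers were at 410 and 404 CPM in the libraries numbered 1 and at 1220 and 1270 CPM in those numbered 2. The labels do not say what a number stands for, and there are 2 pairs, so whether the numbers pair the samples is not known. With the replicate block, 4 members (BRCA2, FANCL, PARP2 and RAD50, all lower on the MinION) and 7 member transcripts were called between instruments, beside 0 and 2 without it. Counts of 1 to 5 behind several SK-OV-3 values limit what can be read from their size.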
